A study of Caenorhabditis elegans with 3 samples.

Results

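The major sperm protein (MSP) and related genes of Caenorhabditis elegans, a nematode worm, were followed in adult hermaphrodites against a wild-type mixed reference RNA. Members were taken by name: genes whose symbol starts with msp, ssp, ssq or msd and a number, and the sperm genes smz-1, smz-2, gsp-3, gsp-4 and sss-1. There were 54 such genes among the 15092 named genes measured on all arrays: 30 msp, 4 msd, 11 ssp, 4 ssq, 2 smz, 2 gsp and 1 sss gene. The 54 genes were read by 56 probes, and each had a value on all 3 arrays. The WBcel235 RefSeq gene table lists 61 symbols of these names. The 7 others, 4 of them pseudogenes, were not analysed here.

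Each of 3 two-colour arrays held RNA of 1 prep of adult hermaphrodites, coded TP09 by the submitters, beside wild-type mixed reference RNA. The labels explain neither the code, the genotype of the adults nor the make-up of the reference, so strain, stage and sex can all enter a difference. Separate cultures are not mentioned either. Each p-value thus reflects only the variation among these preps and their arrays, which may be technical. Values were present for 19807 to 19899 of the 20000 probes on an array, and the median SD of a gene over the 3 arrays was 0.21 on the log2 scale. Each value is an adult over reference log2 ratio after centring the array on its median, with the SD over n = 3 arrays; 0 is the level of the median probe.

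No label says which channel is on top of the ratio. The likely reading is adult over reference, the order in which the labels name the RNAs. Of 14 measured oocyte and eggshell markers 12 (85.7%) were higher in adults, 1 was lower and 1 did not pass. Of all genes 20.9% were higher and 23.5% were lower. The eggshell gene cbd-1 stood at 2.21 ± 0.11 and the yolk receptor gene rme-2 at 2.30 ± 0.42. Of 15 markers of moulting and the larval epidermis 11 (73.3%) were lower and 4 did not pass. The lowest were the ground-like genes grl-7 at -3.01 ± 0.37 and grl-20 at -2.85 ± 0.40. With the opposite direction every sign in the text turns.

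MSPs are small proteins made in bulk in spermatocytes. Nematode sperm have no actin-based motility: they crawl on a pseudopod whose cytoskeleton is built from MSP filaments. MSP released from sperm is also a signal that starts oocyte maturation and contraction of the gonadal sheath. In hermaphrodites sperm are made in the last larval stage and are then stored in the spermatheca, while the adult germline makes oocytes; males go on making sperm. The msd and ssp genes encode other small proteins with an MSP-like domain, and the ssq genes a separate family of sperm-specific proteins. The smz genes encode sperm proteins with a PDZ domain, and gsp-3 and gsp-4 encode sperm forms of the catalytic subunit of protein phosphatase 1. In whole worms, fewer sperm or spermatocytes and less RNA per cell cannot be told apart.

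The msp genes were lower in adults than in the reference, by 1.73-fold at the median gene, while most ssp, ssq and smz genes did not pass the test. Of the 30 msp genes 26 were lower, none was higher (count 0) and 4 did not pass (limma, adjusted p under 0.05 over all 15092 genes). Of all genes tested 23.5% were lower, 20.9% were higher and 44.4% passed in either direction. Over the 54 members 22 did not pass, 31 were lower and 1 was higher. Outside the msp family 5 of 24 members were lower, or 20.8%, close to the 23.5% of all genes. The medians of the mean log2 ratio were -0.79 for msp, -0.37 for msd, -0.07 for ssp and -0.11 for ssq genes, against -0.02 for all genes.

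**Figure D1:**
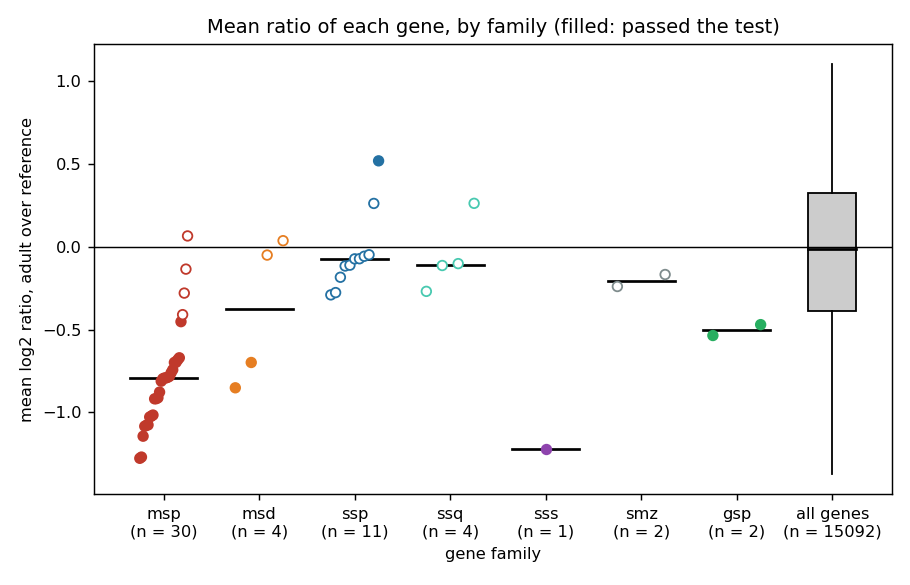
Mean log2 ratio of adult over reference (vertical axis) of each of the 54 genes, by family. Filled points passed the test, open points did not, and black lines are family medians; the grey box spans the 25th to 75th percentile of all 15092 genes, with whiskers to the 5th and 95th percentiles and a line at the median. The filled msp points lie between -1.28 and -0.45, and 27 of the 30 msp means lie below the lowest ssp mean, -0.29.

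The msp values ran from -1.28 to 0.07. The lowest was msp-51 (ZK354.5), with log2 ratios of -1.24, -1.73 and -0.87 on replicates 1, 2 and 3. Its mean of -1.28 ± 0.43 (adjusted p = 0.000994, limma) puts adults 2.42-fold lower. Only 5.64% of all genes had a lower mean. Next came msp-59 (ZK354.11), at -1.29, -1.69 and -0.83 on the 3 arrays, with a mean of -1.27 ± 0.43 (adjusted p = 0.000987). All arrays were well below 0 for both genes, and replicate 2 was the lowest.

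The msp-33 gene (R05F9.8) had a mean of similar size but the widest spread of the family. It stood at -1.27, -1.89 and -0.27, a mean of -1.14 ± 0.82 (adjusted p = 0.0117). Replicate 3 lay apart from the others here. The same held for msp-36 (C04G2.4), singled out after its values were seen, at -1.096, -1.301 and 0.021 with a mean of -0.79 ± 0.71 (adjusted p = 0.0336). It no longer passed without replicate 1 (adjusted p = 0.109) or without replicate 2 (adjusted p = 0.104), nor with centring by runs of rows (adjusted p = 0.0758) or array weights (adjusted p = 0.144).

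In the middle of the family, msp-79 (T13F2.10) stood at -0.95, -1.10 and -0.34, and msp-3 (F26G1.7) at -0.70, -1.26 and -0.42. Their means were -0.80 ± 0.40 and -0.79 ± 0.43. On 25 of the 30 genes the mean was under -0.5, and on 9 it was under -1, the 2-fold mark, which 9% of all genes passed. Of the msp genes called lower, msp-81 (K07F5.1) had the mean nearest 0, at -0.51, -0.61 and -0.24 with a mean of -0.45 ± 0.19 (adjusted p = 0.0269). The call was lost without replicate 2 (adjusted p = 0.154) or replicate 3 (adjusted p = 0.0564).

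The 4 msp genes that did not pass differed among themselves. The msp-142 gene (K05F1.2) lay just past the threshold, at -0.31, -0.72 and -0.19 with a mean of -0.41 (adjusted p = 0.055). It passed without replicate 1 (adjusted p = 0.0485), with array weights (adjusted p = 0.0422) and with centring by runs of rows, where the mean was -0.69 (adjusted p = 0.00546). The msp-49 gene (C34F11.6) stood at -0.41, -0.24 and -0.19 (adjusted p = 0.11), below 0 on all arrays. The msp-45 gene (F58A6.8) stood at 0.06, -0.51 and 0.05 (adjusted p = 0.52), so that only replicate 2 was below 0. The msp-38 gene (K08F4.8) was near 0 on every array, at 0.13, 0.04 and 0.03, with a mean of 0.07 ± 0.05 (adjusted p = 0.696).

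The gene copies are alike in build. Of the 30 measured msp genes 28 span 384 bases in the RefSeq table, msp-32 spans 360 and msp-74 spans 234. Near-identical copies can share signal on an array, so the values of single msp genes are uncertain and the 30 values are not independent. The values of msp-38 and msp-45 stood 1.34 and 1.14 above that of msp-51 on the log2 scale, a difference of means that was not tested. Spot intensities were not used, so whether these spots lay above background is not known.

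**Figure D2:**
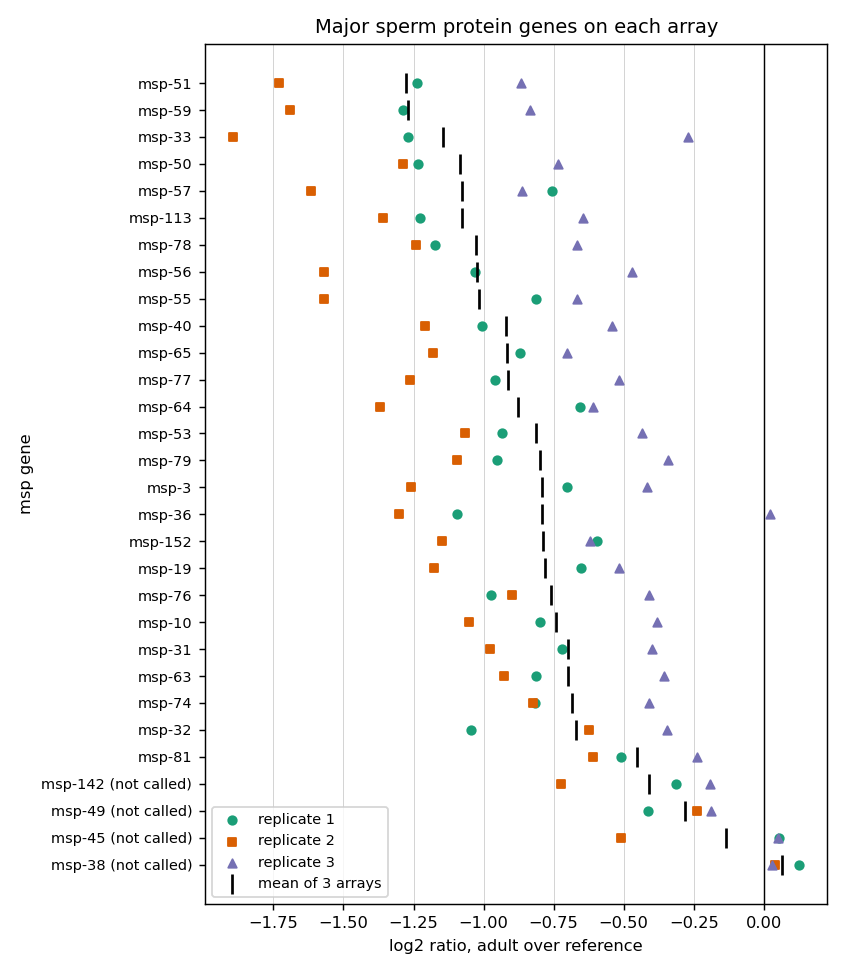
Log2 ratio of adult over reference (horizontal axis) of the 30 msp genes, ordered by their mean; circles, squares and triangles are replicates 1, 2 and 3, and black ticks are means. Replicate 2 is the lowest array for 26 genes and replicate 3 the highest for 26, and the 4 genes that did not pass are at the bottom.

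The size of the msp difference depended on the array, and the genes moved together. The msp medians were -0.84, -1.18 and -0.43 on replicates 1, 2 and 3, or 1.80, 2.26 and 1.34 times lower in adults. In 23 of 30 msp genes (76.7%) replicate 2 was the lowest, replicate 1 the middle and replicate 3 the highest array, an order held by 9.84% of all genes. Replicate 2 lay below replicate 3 in 29 of 30 msp genes, against 47.5% of all genes. The gap between replicate 3 and replicate 2 had a median of 0.64 over msp genes and of -0.02 over all genes, and 25 of 30 msp genes lay above 0.44, the 95th percentile of all genes.

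The ssp genes did not share that gap: its median was 0.01, and 1 of 11 lay above the 95th percentile. Of the 4 ssq genes 3 did, with a median of 0.47. The median SD of an msp gene over the arrays was 0.34, against 0.21 for all genes, and 27 of 30 msp genes were at or above the median SD of all genes. The msp median was below 0 on every array. The oocyte and eggshell markers, listed for comparison, had medians of 1.56, 1.26 and 1.36 on the 3 arrays. Replicate 2 was the lowest array for 12 of these 14 markers and for 26 of the 30 msp genes, against 30.1% of all genes. A low replicate 2 was thus not particular to msp genes. The full order of replicate 2 below 1 below 3 held in 3 of the 14 markers. Whether the sperm content of the preps differed was not tested. Each prep had its own array, and each array title ends in a different date whose meaning is not stated. Differences between preps, arrays and these dates cannot be told apart.

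**Figure D3:**
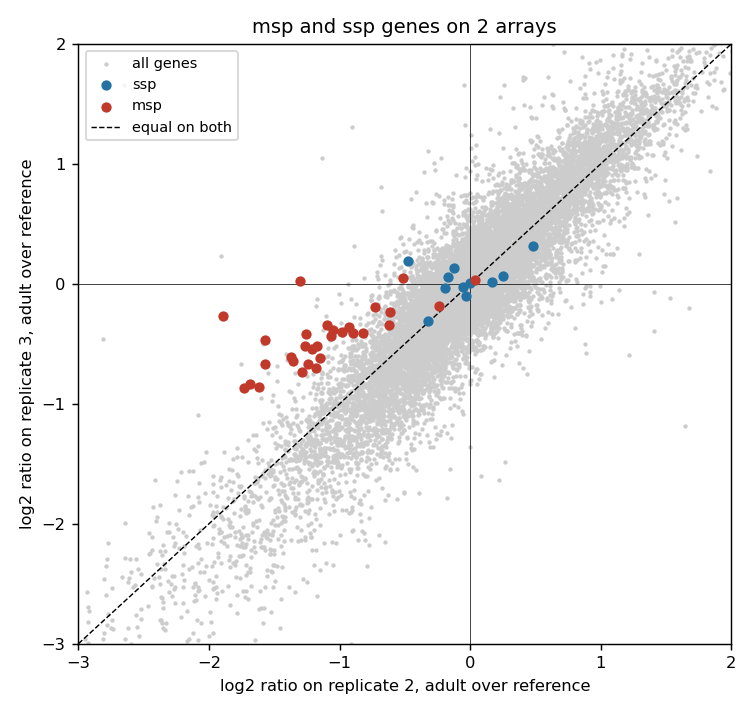
Log2 ratio of adult over reference on replicate 2 (horizontal axis) and replicate 3 (vertical axis) of all genes (grey), ssp genes (blue) and msp genes (red); 176 genes lie outside the drawn range of -3 to 2, and the dashed line marks equal values. The msp points lie above the line in 29 of 30 cases, and the ssp points lie around it and near 0.

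The 4 msd genes split evenly. The msd-4 gene (C35D10.11) stood at -1.35, -0.74 and -0.46, a mean of -0.85 ± 0.46 (adjusted p = 0.00706, limma), or 1.80 times lower in adults. The msd-3 gene (F44D12.7) stood at -0.69, -0.98 and -0.42, a mean of -0.70 ± 0.28 (adjusted p = 0.00643). Both were below 0 on all arrays. The related msd-2 (F44D12.5) and msd-1 (F44D12.3) did not pass, with means of -0.05 ± 0.22 and 0.04 ± 0.28 (adjusted p = 0.795 and 0.862), and their arrays lay on both sides of 0.

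Of the 11 ssp genes none was lower (count 0), 1 was higher and 10 did not pass; at an unadjusted p under 0.05 the count was also 1. The exception was ssp-37 (W02D9.5), at 0.76, 0.48 and 0.31, a mean of 0.52 ± 0.22 (adjusted p = 0.0176, limma). It is read by 2 probes, with means of 0.64 ± 0.16 and 0.40 ± 0.37, and the higher of them passed by itself (adjusted p = 0.00555) while the other did not (adjusted p = 0.0849). The lowest were ssp-16 (T27A3.3) at -0.59, -0.47 and 0.19, and ssp-31 (ZK1225.6) at -0.19, -0.32 and -0.31. With array weights ssp-31 passed as lower, at -0.30 (adjusted p = 0.0255, against 0.105 without them). The ssp-9 gene (E03H12.10) stood at -0.56, -0.12 and 0.13.

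At the median of the family, ssp-19 (C55C2.2) was at -0.09, -0.03 and -0.10. The ssp-36 gene (T13F2.12) stood at -0.15, -0.00 and 0.00, and ssp-10 (K07F5.9) at 0.47, 0.25 and 0.07. Of the 11 means 10 lay within 0.3 of 0. Spot intensities were not used here, so none of these genes could be called above or below background.

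None of the 4 ssq genes passed (count 0, and 0 at an unadjusted p under 0.05, limma). Their means were -0.27 ± 0.24 for ssq-1 (K07F5.11), -0.11 ± 0.37 for ssq-4 (T28H11.1), -0.10 ± 0.30 for ssq-2 (T28H11.5) and 0.26 ± 0.33 for ssq-3 (ZC477.1). On replicate 2 they stood at -0.52, -0.51, -0.44 and -0.05, the lowest of the 3 arrays for each. On replicate 3 they stood at -0.04, -0.06, 0.07 and 0.22. On replicate 1 they stood at -0.25, 0.23, 0.07 and 0.61, the highest array for 3 of the 4. Replicate 2 was thus the lowest array, as in most msp genes, around a mean near 0. The same held for 12 of the 14 oocyte and eggshell markers, so it does not set ssq and msp genes apart. The msp order of replicate 2 below 1 below 3 held in 1 of the 4 ssq genes.

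The single sss gene, sss-1 (F32B6.5), was among the lowest members. It stood at -1.657, -1.001 and -1.001, a mean of -1.22 ± 0.38 (adjusted p = 0.000893, limma), or 2.33 times lower in adults. Here replicate 1 was the lowest and replicates 2 and 3 were equal, unlike the order in the msp genes.

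The sperm phosphatase genes were modestly lower. The gsp-4 gene (T03F1.5) stood at -0.86, -0.44 and -0.30, a mean of -0.54 ± 0.29 (adjusted p = 0.0213, limma), or 1.45 times lower. The gsp-3 gene (W09C3.6) stood at -0.78, -0.30 and -0.33, a mean of -0.47 ± 0.27 (adjusted p = 0.0323); it no longer passed without replicate 1 (adjusted p = 0.0636) or replicate 3 (adjusted p = 0.0751). These copies are alike, and both had replicate 1 as the lowest array. The broadly expressed catalytic subunits of protein phosphatase 1 went opposite ways, with gsp-1 at 0.58 ± 0.22 (adjusted p = 0.011) and gsp-2 at -0.78 ± 0.18 (adjusted p = 0.00228).

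The smz genes did not pass. The smz-2 gene (T21G5.4) stood at -0.42, -0.14 and -0.15 (adjusted p = 0.173, limma). The smz-1 gene (C25G4.6) stood at -0.62, 0.04 and 0.08 (adjusted p = 0.462), so that its mean of -0.17 ± 0.39 rested on replicate 1.

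Members lie in groups on the chromosomes, by the gene order of the WBcel235 RefSeq table. All 30 measured msp genes are on chromosomes II and IV. On chromosome IV 16 of 17 were lower, with medians of -0.95, -1.24 and -0.52 on replicates 1 to 3. On chromosome II 10 of 13 were lower, with medians of -0.72, -0.98 and -0.40. The difference between chromosomes was not tested.

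Of the 3 pairs of an msp gene with an adjacent member of another family, 1 shared the low ratio and both pairs with an ssp gene did not. There were 12 pairs of members with no other protein-coding gene between them. In 5 of the 6 pairs of msp genes both were lower; the exception was msp-63 at -0.70 beside msp-142 at -0.41. Beside the ssp genes, msp-77 at -0.91 and ssp-32 at -0.06 differed by 0.86, and msp-79 at -0.80 and ssp-36 at -0.05 differed by 0.75. In the other, sss-1 at -1.22 lay beside msp-77, and both were lower.

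In the stretch of chromosome IV from ssp-9 to msp-65, 8 of 8 msp genes were lower, with means from -1.28 to -0.78. None of the 4 ssp and ssq genes there was (count 0), with means from -0.18 to -0.07. The nearest protein-coding genes on either side of an msp gene that are no members numbered 36 with values. Any member in between was passed over, so some do not directly adjoin an msp gene. Of these 7 were lower (19.4%) and 6 higher (16.7%), near the 23.5% and 20.9% of all genes, with a median of -0.16. One of them, nlp-47, stood at -2.51 and was chosen after its value was seen.

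**Figure D4:**
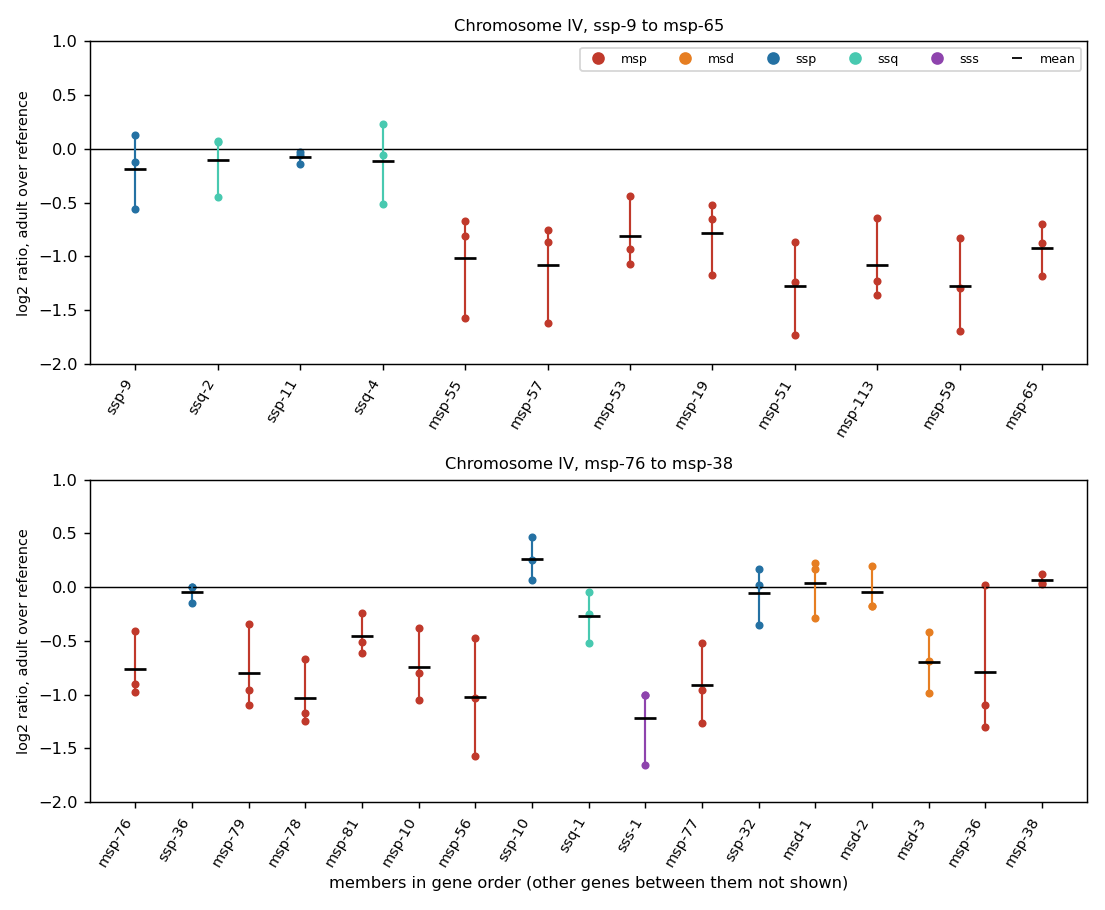
Log2 ratio of adult over reference (vertical axis) of the members in 2 stretches of chromosome IV, in gene order (horizontal axis, other genes not shown); dots are the 3 arrays, lines span them, and black bars are means. In the upper panel the msp means lie between -1.28 and -0.78 and those of ssp and ssq genes between -0.18 and -0.07; in the lower panel ssp-36, ssp-10, ssp-32, msd-1, msd-2 and msp-38 lie near or above 0 among lower genes.

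Other sperm genes were mostly not called. Of 24 measured genes of sperm formation, activation and function 18 did not pass, 2 were lower and 4 were higher, with a median of -0.13. The shares were 8.3% lower and 16.7% higher, against 23.5% and 20.9% of all genes. The lowest was swm-1, a secreted protease inhibitor that restrains sperm activation in males, at -1.46 ± 0.28 (adjusted p = 0.000253, limma). The other lower gene was spe-27, at -1.32 ± 0.39 (adjusted p = 0.000691, limma). The highest was wee-1.3, a kinase gene that also acts in oocytes, at 1.57 ± 0.19 (adjusted p = 0.000137). The nematode-specific peptide families nspd and nspc were taken by symbol alone, and whether their genes act in sperm was not checked. Of 8 nspd genes, 4 were lower and 4 did not pass (median -0.54), with nspd-5 at -0.94 ± 0.18 and nspd-6 at -0.80 ± 0.17. Of 4 nspc genes 3 were lower and 1 did not pass (median -1.88), with nspc-20 at -2.95 ± 0.68 and nspc-9 at -2.11 ± 0.44. The lower shares were 50% and 75%, against 23.5% of all genes.

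Genes that set sperm or oocyte fate and the transcription of sperm genes were higher or not called. Of 17 measured, 12 were higher (70.6%), none was lower (count 0, limma) and 5 did not pass. Of all genes 20.9% were higher and 23.5% were lower. The median of the 17 genes was 0.87. The translational repressor gene gld-1, which acts in both fates, stood at 2.08 ± 0.19, and the helicase gene mog-4, needed for the switch to oocytes, at 1.58 ± 0.38. The spermatocyte transcription factor gene spe-44 stood at 0.96 ± 0.22 (adjusted p = 0.00106). The GATA factor gene elt-1, whose product also acts in the epidermis, did not pass, at -0.27 ± 0.21 (adjusted p = 0.154).

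Genes of the response to MSP went both ways. Of 19 measured, 6 did not pass, 8 were higher and 5 were lower, with a median of 0.42. The lower share, 26.3%, was close to the 23.5% of all genes. The higher share was 42.1%, against 20.9% of all genes. The MSP and ephrin receptor gene vab-1 stood at 1.18, 0.64 and 1.09 on replicates 1 to 3, a mean of 0.97 ± 0.29 (adjusted p = 0.00152, limma). The oocyte regulators lin-41 and oma-1 stood at 1.57 ± 0.10 and 1.54 ± 0.24. Both oma-1 and oma-2, each higher, are also among the oocyte and eggshell markers, so the counts of these lists overlap. Of the 5 lower genes, ceh-18 at -1.18 ± 0.33 and lfe-2 at -1.04 ± 0.22 had the lowest means. The vpr-1 gene, whose protein holds an MSP domain outside sperm, did not pass, at -0.27, 0.51 and 1.23 (adjusted p = 0.165).

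Male markers, given because males also hold sperm, were mostly not called. Of 12 measured, 1 was lower (8.3%, against 23.5% of all genes) and 11 did not pass. Their medians were 0.09, 0.01 and 0.02 on replicates 1 to 3. The lower marker was the male neuron gene cwp-4, at -0.61 ± 0.17 (adjusted p = 0.00679, limma). For the markers of moulting and the larval epidermis the medians were -0.86, -0.99 and -0.67. The part of males or larvae of the reference in the msp ratios was not tested.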

How the data were processed

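Per the labels, adult hermaphrodite RNA (channel 2) and wild-type mixed reference RNA (channel 1) shared each of 3 arrays. The authors deposited log2 ratios by probe; the log base was read from the values, since 100% of the 58013 lying within 2 of 0 convert, as log2, to ratios of 3 decimals (tolerance 0.005 of the last decimal). Background correction, normalization, centring and dyes: not given in the sources used here. GEO's platform annotation gave 1 symbol to 15655 probes, several to 198 and none to 4147; no probe with several symbols included a member (count 0). By gene ID, 15096 of 15168 symbols and all 54 members matched RefSeq genes.

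Arrays were centred on their medians (0.06, 0.00 and 0.02 as deposited), and probes of a gene averaged. Means were tested against 0 with limma 3.58.1 (intercept, eBayes; R 4.3.3; 2 residual and 5.3 prior degrees of freedom), with Benjamini-Hochberg adjustment over 15092 genes and a threshold of 0.05. Each ratio holds the reference channel of its own array, so variation of the reference cannot be told apart from that of the adult RNA. The fit was also run on simulated independent genes. That setting is simpler than these data, where msp copies can share signal, and does not support single calls. The array number limits precision.

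The members and lists were chosen with earlier results of these data known. Named were every member of families of at most 5, the 3 lowest, 3 highest and middle of larger ones, members above 0, and the 2 most different called genes of each other list; other genes are named for their position or after a look at their values. A stretch of members ends where over 50 protein-coding genes intervene. Genome positions are left out because no source used here names the probes' build.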

Additional observations from a re-analysis of the deposited data

How the results depend on the processing

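Testing against a 1.5-fold change left 4 of the 31 lower members (3 of 26 msp and 1 of 5 others) and 0 of 1 higher, and 1164 lower and 912 higher genes in all, since it asks for a larger effect. Other settings kept these counts within 1.5 times: 31 or 32 members were lower under no centring, runs of rows, scale, quantile, single probes, probe medians, at least 2 arrays, a robust prior and array weights, and 29 to 30 when leaving out 1 replicate. The msp median ranged from -1.01 without replicate 3 to -0.67 without replicate 2.

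Members that did not pass and lay near 0 changed sign, the cause of which was not tested. With runs of rows msd-2 was at 0.12, ssp-32 at 0.11 and ssp-36 at 0.06. With array weights (0.37 for replicate 1), ssp-9 and smz-1 were at 0.00 and ssp-32 at 0.02. Leaving out 1 replicate gave -0.23 to 0.05 for msp-45, -0.18 to 0.01 for msd-2, -0.06 to 0.20 for msd-1, -0.34 to 0.00 for ssp-9, -0.17 to 0.09 for ssp-32, -0.07 to 0.00 for ssp-36, -0.28 to 0.09 for ssq-4, -0.19 to 0.07 for ssq-2 and -0.29 to 0.06 for smz-1. With 1 group, no paired analysis was possible because no other group shares the replicate numbers.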

Other observations

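The genes with an array pattern like that of most msp genes were counted. The limits were a mean under -0.4, replicate 2 below 1 below 3, and a gap over 0.4 between replicates 3 and 2. Of 15092 genes 65 met them, of which 22 were msp genes and 1 was msd-3. The limits were chosen after the msp values were seen, so the number of msp genes is no separate evidence. Copies can also share signal, so the 22 are not independent. The median gap of the msp genes was 0.83 after scale and 0.84 after quantile normalization and 0.61 after centring by runs of rows, and 29 of 30 msp genes were lower on replicate 2 than on replicate 3 under each of these.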
